A study of Mus musculus with 2 samples.

Results

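Cycling leukocytes of the liver were the cells caught in the act of division. They were chosen by their transcript counts, as cells with at least 3 unique molecular identifiers (UMIs, each the tag of 1 captured transcript) of *Top2a*, *Mki67*, *Birc5* and *Ube2c* summed. A barcode counted as a cell when it held at least 1500 UMIs, with under 10% of them mitochondrial. By this rule 127 of 16052 cells were cycling, 21 of 7050 in the antibiotic library and 106 of 9002 in the vehicle library. A cell with at least 2 UMIs of *Cd3d*, *Cd3e* and *Cd3g* was placed in the T lineage, otherwise a cell with at least 2 UMIs of *Cd79a* and *Jchain* in the B lineage, and the remainder were called other. Cycling T lineage cells numbered 17 of 5450 in the antibiotic library and 94 of 5298 in the vehicle library. B lineage cells gave 3 of 1343 cycling cells with antibiotics and 5 of 2959 with vehicle, and other cells gave 1 of 257 and 7 of 745.

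The study asked how microbes shape the leukocytes of the liver. CD45+ cells were sorted from livers of 6-week-old female mice, whose strain the sources used here do not name for this experiment and for which they name no targeted allele. The antibiotic group had drinking water with vancomycin and neomycin at 0.5 mg/mL each and ampicillin and metronidazole at 1 mg/mL each for at least 1 week, and the other group had vehicle. Each group gave 1 library, and none of the sources used here says how many mice gave cells to it, so the treatment cannot be told apart from the library, its mice or its handling. No test between groups was possible. Ratios below are antibiotic over vehicle with exact 95% intervals, which cover counting error only.

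A dividing cell copies its DNA in S phase and then, in G2 and M phase, builds a spindle, condenses its chromosomes and pulls them apart. *Top2a* encodes the topoisomerase that untangles copied DNA, *Mki67* the Ki-67 protein that coats mitotic chromosomes, *Birc5* the survivin subunit of the chromosomal passenger complex, and *Ube2c* the ubiquitin-conjugating enzyme that serves the anaphase-promoting complex. All of them peak late in the cycle, so the rule favours G2 and M phase over early S phase. Most leukocytes of a resting liver do not divide. Naive and memory lymphocytes rest in G0 until antigen or cytokines call them in, whereas plasmablasts, lymphocyte precursors and granulocyte precursors divide as part of their development.

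Genes of late division share promoter elements. The cell cycle homology region, commonly TTTGAA or TTCGAA, is bound by the MuvB complex, which represses these genes in resting cells as part of DREAM and activates them in dividing cells with B-Myb and FoxM1, and the nearby CCAAT boxes are bound by NF-Y. The 250 bases before the RefSeq start of 3 rule genes are shown because they display this layout in *Top2a* and *Mki67*, while the *Birc5* window holds none of these letters. They are written 5′ to 3′ on the gene's strand from GRCm38.p6, with the letters of TTTGAA or TTCGAA, and of CCAAT, on either strand in capitals. *Top2a* lies on the minus strand and its window is chr11:99024190-99024439. *Mki67* lies on the minus strand with chr7:135716380-135716629, and *Birc5* on the plus strand with chr11:117848987-117849236.
Top2a: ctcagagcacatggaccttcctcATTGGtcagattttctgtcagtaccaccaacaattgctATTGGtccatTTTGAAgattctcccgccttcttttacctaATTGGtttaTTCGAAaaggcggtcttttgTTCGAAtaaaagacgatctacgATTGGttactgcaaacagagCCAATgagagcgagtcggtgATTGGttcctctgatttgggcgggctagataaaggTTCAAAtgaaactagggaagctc
Mki67: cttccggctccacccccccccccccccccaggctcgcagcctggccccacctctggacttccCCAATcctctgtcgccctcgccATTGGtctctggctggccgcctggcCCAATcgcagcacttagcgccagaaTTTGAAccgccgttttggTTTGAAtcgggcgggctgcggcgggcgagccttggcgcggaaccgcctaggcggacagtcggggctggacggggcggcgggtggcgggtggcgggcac
Birc5: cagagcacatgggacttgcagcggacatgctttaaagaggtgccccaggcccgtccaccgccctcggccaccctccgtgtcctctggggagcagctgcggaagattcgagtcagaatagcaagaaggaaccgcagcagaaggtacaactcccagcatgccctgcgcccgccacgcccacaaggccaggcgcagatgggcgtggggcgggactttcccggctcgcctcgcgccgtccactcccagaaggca

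*Top2a* held 2 matches to TTTGAA, 2 to TTCGAA and 6 to CCAAT. *Mki67* held 2 to TTTGAA and 3 to CCAAT, and *Ube2c*, not printed, 1 to TTTGAA and 6 to CCAAT, of which 1 pair overlaps on opposite strands. *Birc5* held none of these letters in this window, which says nothing of the factors. A window with TTTGAA or TTCGAA together with at least 2 CCAAT was found for 3 of 4 rule genes, for 11 of 41 G2 and M phase genes with a promoter in the table (26.8%), for 1 of 29 S phase genes (3.45%) and for 2.01% of 27025 genes in all. TTTGAA or TTCGAA, with or without CCAAT, was found for 43.9% of these G2 and M phase genes, 20.7% of the S phase genes and 19.6% of all genes. These are matches of letters, not sites shown to be used. In GENCODE vM21 coordinates of GRCm38, the *Top2a* gene spans 98992943 to 99024189 of chromosome 11, *Mki67* 135689784 to 135716361 of chromosome 7, *Birc5* 117849251 to 117855743 of chromosome 11 and *Ube2c* 164769898 to 164778822 of chromosome 2.

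The label was checked with 10 cycling genes that the rule did not use, among them *Cdk1*, the kinase that drives entry into mitosis, *Ccna2*, which encodes cyclin A2, and *Rrm2*, a subunit of ribonucleotide reductase. At least 3 UMIs of these genes were present in 18 of 21 antibiotic (85.7%) and 98 of 106 vehicle (92.5%) cycling cells. Among cells not called cycling the same was true of 5 of 7029 (0.0711%) in the antibiotic and 19 of 8896 (0.214%) in the vehicle library. Their summed level was 1815 CPM (UMIs of these genes per 1000000 UMIs of the same cells) in antibiotic and 2348 CPM in vehicle cycling cells, against 10.0 and 18.0 CPM in the cells not cycling. All 127 cells held UMIs of the leukocyte list. *Ptprc*, which encodes CD45, was seen in 21 of 21 antibiotic and 96 of 106 vehicle cycling cells, and hepatocyte genes reached 6.65 CPM and 32.7 CPM. The cells thus carried leukocyte genes and division genes beyond those of the rule.

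The libraries held 29811401 UMIs with antibiotics and 41474311 UMIs with vehicle, of which 85.5% and 85.7% lay in the called cells. Cycling cells were the deepest, at a median of 14968 UMIs (5164 to 23801) in the antibiotic and 10826.5 UMIs (2341 to 30170) in the vehicle library, against 3326 and 3500 UMIs in the cells not cycling. A doublet caller marked 0 of 21 and 1 of 106 cycling cells, against 2% and 4.44% of all cells, and these were kept. T and B lineage genes, each at 2 or more UMIs, occurred together in 2 of 21 antibiotic (9.52%) and 12 of 106 vehicle (11.3%) cycling cells, against 3.06% and 5.72% of all cells. Of 93 barcodes called in both libraries none was cycling in both. Barcodes with at most 100 UMIs, which carry free RNA, had 254 CPM and 257 CPM of the rule genes, cycling cells 1672 CPM and 1906 CPM, and cells not cycling 6.31 CPM and 11.2 CPM. The low values of cells not cycling are built in, since the rule kept each under 3 UMIs of these genes.

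The threshold was crossed by few cells. A sum of 2 rule gene UMIs, just below it, was held by 16 antibiotic and 29 vehicle cells, of which 4 and 7 carried at least 3 UMIs of the 10 genes outside the rule. A sum of exactly 3, just inside, was held by 2 and 12 cells, of which 0 and 5 did. Over 10 rule gene UMIs were found in 12 of 21 antibiotic and 67 of 106 vehicle cycling cells, with medians of 16 (3 to 65) and 17 (3 to 73) UMIs. Most members therefore lay well inside the rule. Below the depth limit, 0 of 261 antibiotic and 3 of 523 vehicle barcodes with at least 500 but under 1500 UMIs reached 3 rule gene UMIs.

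**Figure D1:**
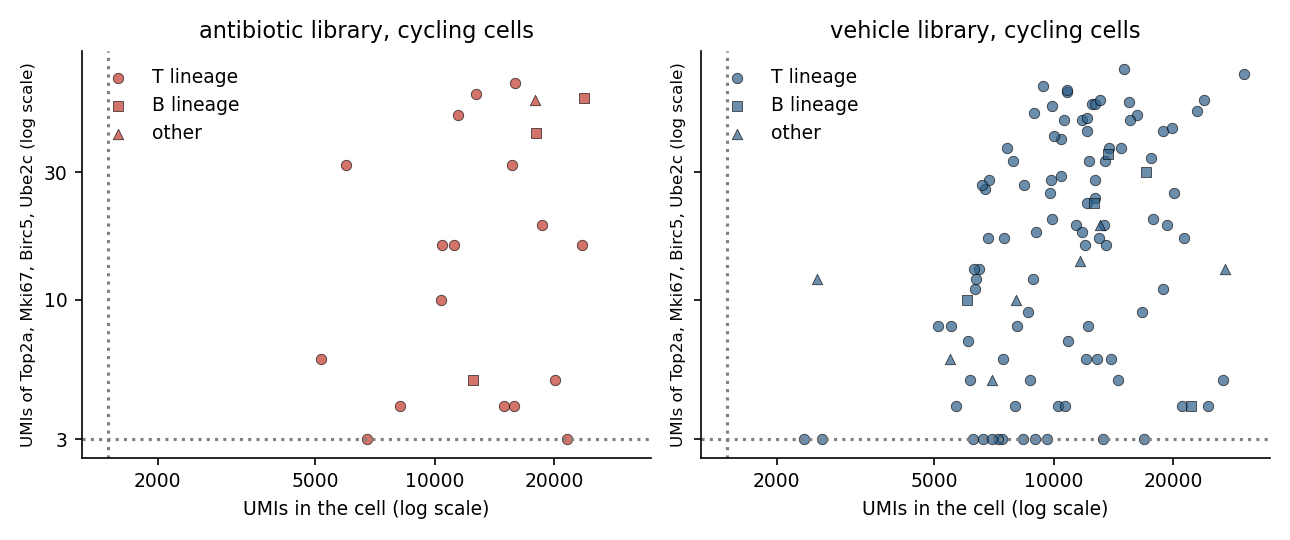
Rule gene UMIs (*Top2a*, *Mki67*, *Birc5* and *Ube2c* summed, log axis) against total UMIs (log axis) of each cycling cell, antibiotic left and vehicle right, with circles for T lineage, squares for B lineage and triangles for other cells and dotted lines at the limits of 3 rule gene UMIs and 1500 total UMIs. The 21 antibiotic cells have medians of 16 rule gene UMIs and 14968 total UMIs, and the 106 vehicle cells 17 and 10826.5.

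The cycling share was lower in the antibiotic library, as it was in the T lineage, while the intervals for B lineage and other cells spanned 1. Cycling cells made up 0.298% (95% exact interval 0.184 to 0.455) of antibiotic and 1.18% (0.965 to 1.42) of vehicle cells, a ratio of 0.253 (0.150 to 0.407). In the T lineage the share was 0.312% (0.182 to 0.499) with antibiotics and 1.77% (1.44 to 2.17) with vehicle, a ratio of 0.176 (0.0983 to 0.297). The antibiotic library held more T lineage cells than the vehicle library (77.3% against 58.9% of all cells) and yet fewer cycling ones. In the B lineage the shares were 0.223% (0.0461 to 0.651) and 0.169% (0.0549 to 0.394), and the ratio of 1.32 had an interval of 0.205 to 6.79, too wide to show a difference at these counts. Among the 94 vehicle T lineage cells, 4 held more UMIs of the B cell list than of the T cell list, as did none of the 17 antibiotic ones. With all such cells counted as B lineage (54 antibiotic and 174 vehicle cells in all), the share was 17 of 5396 antibiotic and 90 of 5124 vehicle T lineage cells, a ratio of 0.179 (0.100 to 0.303). In the B lineage it was then 3 of 1397 and 9 of 3133, a ratio of 0.748 (0.130 to 2.995), on the other side of 1. Other cells gave 0.389% (0.00985 to 2.15) and 0.940% (0.379 to 1.93), with a ratio of 0.414 (0.00919 to 3.22).

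T lineage cells formed most of the cycling pool in both libraries. They were 81.0% (58.1 to 94.6) of antibiotic and 88.7% (81.1 to 94.0) of vehicle cycling cells, shares whose intervals overlap. B lineage cells were 14.3% and 4.72%, and other cells 4.76% and 6.60%.

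Since a deeper cell reaches 3 UMIs more readily, the share was also taken at fixed depth. After every cell was thinned to 1500 UMIs, 6 of 7050 antibiotic (0.0851%) and 48 of 9002 vehicle (0.533%) cells still reached 3 rule gene UMIs, and in the T lineage 4 (0.0734%) and 43 (0.812%). With the 10 other genes in place of the rule, 13 antibiotic (0.184%) and 63 vehicle (0.700%) thinned cells reached 3 UMIs, of which 10 and 54 were T lineage cells. Within T lineage cells of 6000 to 12000 UMIs, 6 of 381 (1.57%, 0.580 to 3.40) were cycling with antibiotics and 48 of 711 (6.75%, 5.02 to 8.85) with vehicle. At 12000 UMIs and above the counts were 9 of 23 (39.1%, 19.7 to 61.5) and 41 of 69 (59.4%, 46.9 to 71.1). At 3000 to 6000 UMIs there were 2 of 3793 and 3 of 3856, so the 2 deeper ranges held nearly all of them. The intervals did not meet at 6000 to 12000 UMIs and overlapped at 12000 UMIs and above.

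**Figure D2:**
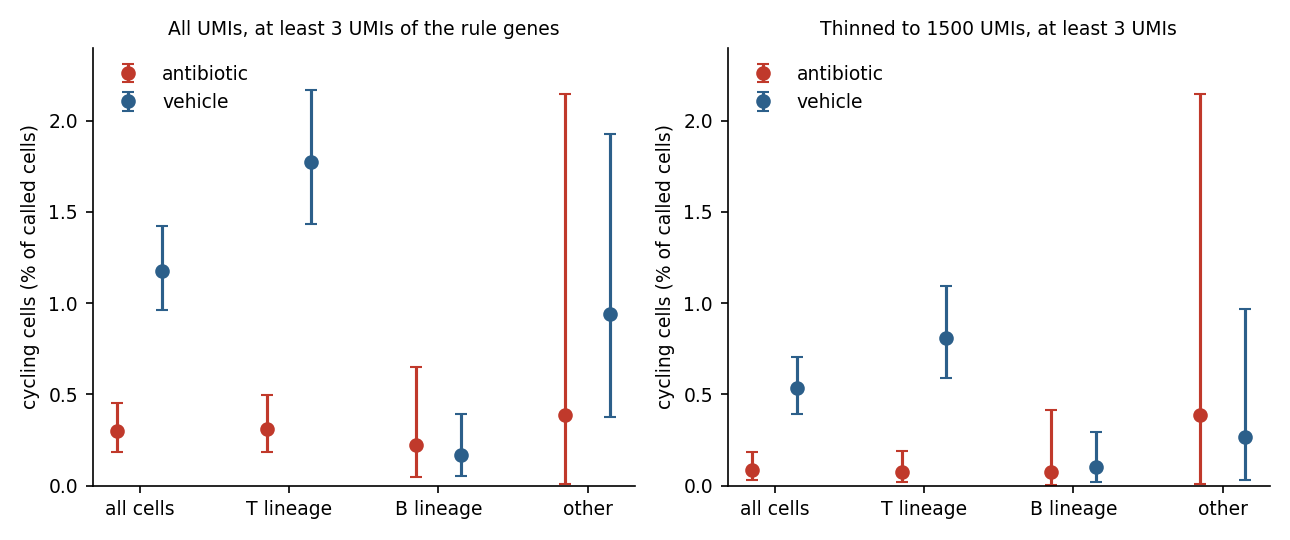
Percent of called cells that were cycling in all cells and in the T, B and other lineages, antibiotic left of vehicle, as points with exact 95% intervals, with all UMIs in the left panel and after thinning to 1500 UMIs in the right panel. With all UMIs the antibiotic T lineage stands at 0.312% and the vehicle T lineage at 1.77%, and thinned at 0.0734% and 0.812%, with intervals that do not meet, whereas those of the B and other lineages overlap.

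T lineage cells were next split by receptor transcripts, in this order: at least 2 UMIs of *Trdc*, the delta chain constant gene, at least 2 of *Cd8a* and *Cd8b1*, the chains of the CD8 coreceptor, at least 1 of *Cd4*, and none of these. Cells with *Cd4* were cycling in 3 of 786 (0.382%) antibiotic and 28 of 958 (2.92%) vehicle cells, a ratio of 0.131 (0.0254 to 0.423). Cells with none of the transcripts gave 9 of 4213 (0.214%) and 54 of 3480 (1.55%), a ratio of 0.138 (0.0598 to 0.281). Cells with *Cd8a* and *Cd8b1* gave 5 of 248 (2.02%) and 8 of 581 (1.38%), and their ratio of 1.46 (0.377 to 5.08) leaves the direction undetermined. Cells with *Trdc* were cycling in 0 of 203 antibiotic cells, which allows a share of up to 1.48% at 3 counts and 1.80% by the exact interval, and in 4 of 279 (1.43%) vehicle cells. Of the cycling T lineage cells, those with CD8 transcripts were 29.4% (10.3 to 56.0) in the antibiotic and 8.51% (3.75 to 16.1) in the vehicle library. Cells with *Cd4* were 17.6% (3.80 to 43.4) and 29.8% (20.8 to 40.1). Cycling T lineage cells (medians of 12709 and 10815.5 UMIs) were deeper than the others (3560 and 4055 UMIs), and the part of depth in these class shares was not tested.

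Within each library, cycling T lineage cells differed from the other T lineage cells in division genes outside the rule. Ratios here are cycling over other T lineage cells, and 26.0% of 10253 genes with at least 30 UMIs were higher and 33.1% lower by 1.5-fold in the antibiotic library, against 19.1% and 22.9% of 10623 in the vehicle library. All measured G2 and M phase genes were higher, 31 of 31 with antibiotics and 42 of 42 with vehicle, and so were 32 of 33 and 41 of 41 S phase genes. A division gene may reach the 30-UMI minimum through the cycling cells alone, so these counts are a description. The percents are a description too. Cycling T lineage cells held 228593 antibiotic and 1108865 vehicle UMIs, against 21167396 and 23106196 in the others. A gene near the minimum has so few UMIs in the cycling cells that counting error alone can pass 1.5-fold, more so with antibiotics. Summed, the G2 and M phase list was 9.03-fold (8.63 to 9.45) and 10.5-fold (10.3 to 10.8) higher and the S phase list 5.99-fold (5.61 to 6.38) and 5.88-fold (5.70 to 6.06) higher. *Ccna2* had 27 UMIs in 17 antibiotic cycling T lineage cells and 3 in 5433 other ones, at 118 CPM and 0.142 CPM. In the vehicle library it had 265 UMIs in 94 cycling and 23 in 5204 other cells, at 239 CPM and 0.995 CPM. *Cenpf*, a kinetochore protein, was 622-fold and 313-fold higher, *Ccnb2*, cyclin B2, 471-fold and 215-fold, and *Nusap1*, which bundles spindle microtubules, 330-fold and 223-fold. *2810417H13Rik*, the PCNA-associated factor Pclaf, was 188-fold and 194-fold higher and the histone gene *Hist1h2ap* 128-fold and 108-fold. Of the rule genes, as a description, *Birc5* stood at 588-fold and 333-fold, *Ube2c* at 497-fold and 248-fold, *Mki67* at 143-fold and 115-fold and *Top2a* at 127-fold and 109-fold. In the vehicle library *Mxd3*, a Max-binding repressor, was 471-fold, *Hmmr*, a spindle assembly factor, 354-fold and *Pbk*, a mitotic kinase, 342-fold higher.

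Summed over their lists, growth genes were higher too and quiescence genes lower. Tubulins and *Stmn1*, a tubulin-binding protein, were 7.22-fold and 8.47-fold higher in sum, with 8 of 8 and 7 of 8 higher. Myc targets of the nucleolus and translation were 2.13-fold and 1.80-fold higher, with 17 of 19 and 18 of 19 higher. The list of cell cycle inhibitors and quiescence genes was at 0.677 (0.614 to 0.744) and 0.591 (0.564 to 0.619), with 10 of 14 and 11 of 16 lower. Part of that list thus went the other way. Of all genes, 33.1% and 22.9% were lower and 26.0% and 19.1% higher by 1.5-fold. The share of all genes that moved by any amount was not taken, so the counts of these lists are a description. Among the quiescence genes *Btg1*, an antiproliferative gene, stood at 0.299 and 0.313.

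Innate-like T cell genes, whose cells are abundant in the resting liver, were lower in the cycling cells. All 10 genes of the innate-like and NKT list were lower in cycling than in other T lineage cells of both libraries. The share of all genes lower by any amount was not taken, so this count is a description too. Summed ratios of the list were 0.351 (0.307 to 0.400) with antibiotics and 0.533 (0.510 to 0.558) with vehicle. *Klrb1c*, which encodes NK1.1, had 43.7 CPM in antibiotic cycling and 543 CPM in other T lineage cells (0.0806, 0.0386 to 0.148), and 39.7 CPM and 291 CPM in the vehicle library (0.136, 0.0991 to 0.183). Thinned to 1500 UMIs, 0 of 17 antibiotic cycling cells and 51.4% of the other T lineage cells held a *Klrb1c* UMI, and 6.38% and 30.1% did in the vehicle library. Other B lineage cells, which should lack it, had 3.43% and 1.86% at medians of 2131.5 and 2508.5 UMIs. Unthinned, the T lineage shares were 23.5% and 74.2% with antibiotics and 26.6% and 52.1% with vehicle. *Cxcr6*, the receptor that holds innate-like T cells in liver sinusoids, was at 0.141 (0.0914 to 0.209) and 0.426 (0.385 to 0.470). *Bcl2*, which protects resting lymphocytes from death, was at 0.145 (0.0873 to 0.227) and 0.245 (0.200 to 0.297), and *Socs2*, a feedback inhibitor of cytokine receptors, at 0.0652 and 0.186. *Xcl1*, a chemokine that draws cross-presenting dendritic cells, was at 0.0658 (0.0136 to 0.192) in the antibiotic library and 0.730 in the vehicle library. *Klrc1* and *Klrc2*, NKG2 receptor genes, were at 0.113 and 0.0426, *Rgs1*, a damper of chemokine receptor signals, at 0.0604 and *Rabac1* at 0.202 with antibiotics. *Malat1*, a nuclear noncoding RNA, was at 0.331 and the kinase gene *Txk* at 0.291 with vehicle. *Trav11*, the variable gene of the invariant NKT receptor, was seen in 0 of 17 antibiotic and 4.26% of vehicle cycling T lineage cells at full depth. Transcripts of other cell types were lower in vehicle cycling cells, with *Cd74* at 0.318, *H2-Aa* at 0.293 and *Jchain* at 0.0466, and *Jchain* was at 0.0500 with antibiotics. One of the other T lineage cells held 47.2% of the vehicle *Jchain* UMIs, and without it the ratio was 0.0881. *S100a8* was at 0.112, but 89.1% of its UMIs in other T lineage cells came from 1 cell, and without it the ratio was 1.02 (0.552 to 1.75).

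In the T lineage the 2 libraries could be compared gene by gene among cycling cells. Of 4712 genes with at least 30 UMIs, 9.27% were higher and 18.5% lower by 1.5-fold in antibiotic cycling T lineage cells, and the median log2 ratio was -0.03. The 17 antibiotic cells are few, and a gene can rest on 1 of them. Where leaving out 1 antibiotic cell moves the ratio by over 1.5 times, the value without it is given.

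Summed over cycling T lineage cells, S phase genes stood at similar levels and G2 and M phase genes lower with antibiotics. The S phase list had 4453 CPM in antibiotic and 4699 CPM in vehicle cycling T lineage cells, a ratio of 0.948 (0.885 to 1.01), with 19 of 40 genes higher and a median log2 ratio of 0.01. The G2 and M phase list had 8968 CPM and 11821 CPM, a ratio of 0.759 (0.724 to 0.795), with 6 of 41 genes higher, 35 lower and a median of -0.29. Per cell, the S phase list had a median of 4476 CPM (261 to 10525) in antibiotic and 4912 CPM (163 to 11500) in vehicle cells. The G2 and M phase list had medians of 8773 CPM (1944 to 21882) and 11524 CPM (1121 to 31784), so single cells of the libraries overlapped over nearly the whole range. S phase CPM exceeded G2 and M phase CPM in 5 of 17 antibiotic and 16 of 94 vehicle cells. The rule asks for a fixed number of late-cycle UMIs, so a deeper cell can enter at a lower CPM of these genes. Antibiotic cells were deeper, at medians of 12709 and 10815.5 UMIs. Over all cycling cells both lists were lower (S phase 3845 CPM and 4734 CPM, G2 and M phase 9309 CPM and 11434 CPM). With those cells chosen after thinning, the log2 ratio reached -0.53 for S phase and -0.12 for G2 and M phase. The part of depth was not tested.

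**Figure D3:**
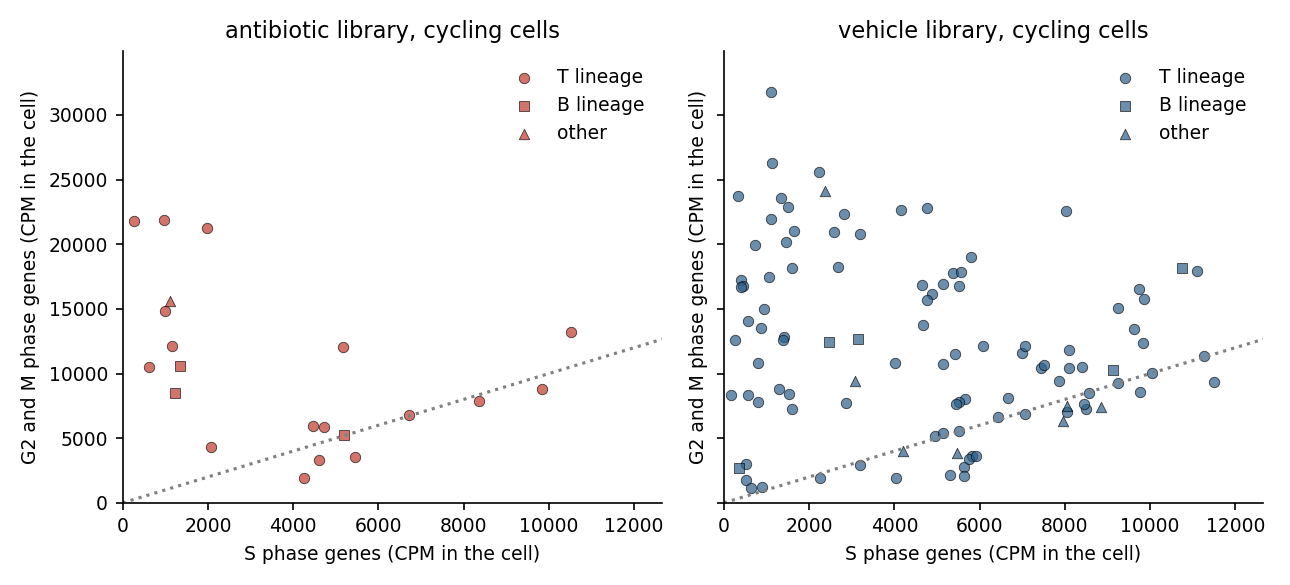
G2 and M phase list CPM (vertical axis) against S phase list CPM (horizontal axis) of each cycling cell, antibiotic left and vehicle right, with circles for T lineage, squares for B lineage and triangles for other cells and a dotted line where both lists are equal. Antibiotic T lineage cells have S phase and G2 and M phase medians of 4476 CPM and 8773 CPM and vehicle T lineage cells 4912 CPM and 11524 CPM, and the clouds overlap.

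By role, the replication lists were near even. Licensing and origin firing genes, which load the helicase, had a summed ratio of 1.08 (0.969 to 1.21) with 8 of 15 higher. *Mcm6*, a helicase subunit, was at 249 CPM in antibiotic and 175 CPM in vehicle cells (1.43, 1.04 to 1.92), and *Mcm5* at 153 CPM and 202 CPM (0.758, 0.515 to 1.09). DNA synthesis and nucleotide supply stood at 0.914 (0.839 to 0.995) with 8 of 17 higher. Within it *Pcna*, the sliding clamp, was at 1.08 (0.809 to 1.42), *Dut* at 0.936 (0.752 to 1.16) and *Rrm2* at 0.620 (0.479 to 0.792). S phase repair and chromatin assembly stood at 0.895 (0.801 to 0.998). Histones were even in sum at 0.981 (0.929 to 1.03), but *H2afz*, the histone variant H2A.Z, had 3263 CPM against 2481 CPM (1.32, 1.21 to 1.43) and *Hist1h2ap* 2227 CPM against 2985 CPM (0.746, 0.678 to 0.819).

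The mitotic lists were lower in sum, under the same limit of depth. Mitotic cyclins and kinases had 1934 CPM in antibiotic and 2712 CPM in vehicle cells (0.713, 0.644 to 0.788), with 15 of 16 genes lower and *Nek2* at 1.29 (0.623 to 2.49). *Cdk1* was at 162 CPM and 283 CPM (0.572, 0.395 to 0.805), *Ccna2* at 118 CPM and 239 CPM (0.494, 0.320 to 0.736), *Aurkb*, the passenger complex kinase, at 0.511 (0.272 to 0.887) and *Ccnb2* at 0.774 (0.573 to 1.03). *Pbk* stood at 0.295 (0.116 to 0.628), or 0.141 without 1 antibiotic cell. Spindle genes and kinesins had 1032 CPM against 1538 CPM (0.671, 0.583 to 0.770), with 15 of 17 lower. *Tacc3*, which steadies spindle microtubules, was at 56.9 CPM and 151 CPM (0.378, 0.197 to 0.664) and *Tpx2*, the activator of Aurora A, at 87.5 CPM and 145 CPM (0.603, 0.358 to 0.962). *Kif23*, a kinesin of cytokinesis, was at 21.9 CPM and 67.6 CPM (0.323, 0.102 to 0.789), or 0.204 without 1 antibiotic cell.

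Kinetochore and centromere genes stood at 0.855 (0.771 to 0.947) with 12 of 16 lower. *Spc24* of the Ndc80 complex was at 0.444 (0.285 to 0.664), and *Cenpf* at 1.09 (0.774 to 1.5), or 0.657 without 1 antibiotic cell. Condensin and chromosome structure stood at 0.756 (0.714 to 0.799) with 12 of 13 lower, among them *Hmgb2*, a DNA-bending protein, at 3351 CPM and 4507 CPM (0.743, 0.688 to 0.802) and *Smc4*, a condensin subunit, at 0.598 (0.460 to 0.767). Mitotic exit and cytokinesis stood at 0.738 (0.658 to 0.826) with 9 of 11 lower, and *Ube2s*, which extends ubiquitin chains for the anaphase-promoting complex, at 0.620 (0.514 to 0.744). Tubulins and *Stmn1* were lower in all 6 measured genes, at 5026 CPM and 7675 CPM in sum (0.655, 0.615 to 0.697). *Tubb5* was at 0.644, *Tuba1b* at 0.645, *Tubb4b* at 0.561 and *Stmn1* at 0.734. The 4 rule genes, which chose the cells, had 1500 CPM and 1995 CPM. *Top2a* had 433 CPM and 572 CPM, *Mki67* 149 CPM and 234 CPM, *Birc5* 472 CPM and 620 CPM and *Ube2c* 446 CPM and 569 CPM. Other T lineage cells, at 0.803 CPM and 1.86 CPM of *Birc5*, give the background.

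Summed over the cells, entry into the cycle and growth genes did not follow the mitotic lists. G1 cyclins and E2F factors stood at 0.911 (0.799 to 1.03), with *Ccne1*, cyclin E1, at 96.2 CPM and 43.3 CPM (2.22, 1.28 to 3.76) and *Ccnd2*, cyclin D2, at 188 CPM and 271 CPM (0.693, 0.491 to 0.956). Myc targets stood at 9427 CPM and 8219 CPM (1.15, 1.09 to 1.20) with 13 of 18 higher. Of their 2155 antibiotic UMIs, single cells of 23488 and 21601 UMIs held 489 and 407. The ratio without these cells was not taken, so its direction may rest on them. Within the list *Npm1*, the nucleolar chaperone nucleophosmin, was at 1.46 (1.31 to 1.62), *Eif5a* at 1.26 (1.11 to 1.43) and *Ncl*, nucleolin, at 1.23 (1.05 to 1.45). Of the inhibitors, *Cdkn2c*, which encodes p18 and blocks CDK4 and CDK6, was at 48.1 CPM and 138 CPM (0.349, 0.171 to 0.642). *Klf2*, a factor of resting and recirculating T cells, had 770 CPM and 430 CPM (1.79, 1.5 to 2.13). Its median per cell was 10 UMIs (0 to 55) with antibiotics and 1.5 UMIs (0 to 35) with vehicle.

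**Figure D4:**
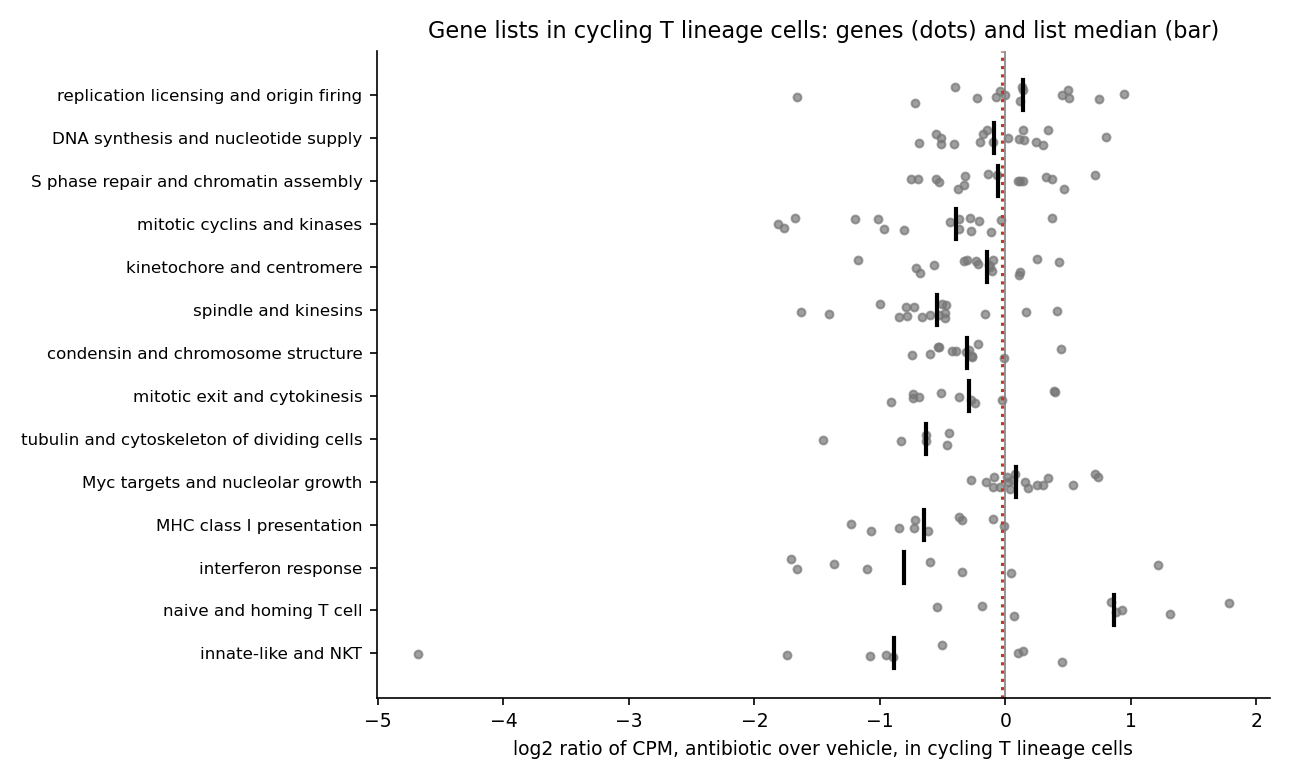
Log2 ratio of CPM, antibiotic over vehicle, in cycling T lineage cells, with a dot for each gene of 14 lists with at least 30 UMIs and a ratio above 0, a black bar at the median of each list, a grey line at 0 and a dotted line at the median of all genes (-0.03). The medians lie at -0.55 for spindle genes and kinesins, -0.63 for tubulins and -0.65 for MHC class I, and at 0.14 for replication licensing and 0.87 for naive and homing genes.

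Genes of T cell identity differed between the libraries' cycling cells. The general T cell list was close, at 7817 CPM in antibiotic and 7243 CPM in vehicle cells (1.08, 1.02 to 1.14) with 4 of 10 higher. Naive and homing genes had 1649 CPM and 958 CPM (1.72, 1.53 to 1.94), with 6 of 8 higher and a median log2 ratio of 0.87, and in other T lineage cells their ratio was 1.075 with 2 of 8 higher. *Il7r*, the receptor chain for the survival cytokine IL-7, had 49 UMIs in 11 of 17 antibiotic cells and 69 UMIs in 36 of 94 vehicle cells, at 214 CPM and 62.2 CPM (3.44, 2.34 to 5.04). Its median per cell was 2 UMIs (0 to 11) with antibiotics and 0 (0 to 7) with vehicle. In other T lineage cells *Il7r* was 2.29-fold (2.20 to 2.38) higher with antibiotics too. *Lef1* and *Tcf7*, the Wnt-pathway factors of naive and memory T cells, were at 2.48 (1.67 to 3.65) and 1.84 (1.27 to 2.62), against 0.922 and 0.734 in other T lineage cells. *Ccr7*, the receptor for lymph node entry, was at 0.687 (0.388 to 1.15).

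CD8 transcripts were higher in antibiotic cycling cells and lower in the other T lineage cells. *Cd8b1* had 57 UMIs in 5 of 17 antibiotic and 114 UMIs in 8 of 94 vehicle cells, at 249 CPM and 103 CPM (2.43, 1.73 to 3.36), and 1.49 without 1 antibiotic cell. *Cd8a* was at 2.65 (1.54 to 4.45). In other T lineage cells they were at 0.451 (0.424 to 0.480) and 0.303 (0.275 to 0.333). Thinned to 1500 UMIs, 23.5% of antibiotic cycling, 4.18% of antibiotic other, 6.38% of vehicle cycling and 9.47% of vehicle other T lineage cells held a *Cd8b1* UMI, against 0.299% and 0.880% of other B lineage cells.

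Part of the innate-like effector genes were lower in antibiotic cycling cells. The innate-like and NKT list had 1006 CPM and 1815 CPM (0.554, 0.481 to 0.636), with 6 of 9 genes lower. *Klrb1c* was not lower, at 43.7 CPM and 39.7 CPM. Without the 4 vehicle cells richer in B cell list UMIs, *Il2rb*, an interleukin receptor chain, was at 1.03 (0.734 to 1.41). In that set *Xcl1* and *Cxcr6* held 374 and 404 of the 2009 vehicle UMIs of the list. *Xcl1* had 3 UMIs in 2 of 17 antibiotic cells and 374 UMIs in 45 of 94 vehicle cells, at 13.1 CPM and 337 CPM (0.0389, 0.00799 to 0.115), or 0.0135 without 1 antibiotic cell. In vehicle cells its median was 0 UMIs and its highest 110 UMIs, so part of the cells carried most of it, and in other T lineage cells its ratio was 0.432. *Cxcr6* had a median of 1 UMI (0 to 5) in antibiotic and 3 UMIs (0 to 24) in vehicle cells, at 109 CPM and 364 CPM (0.300, 0.192 to 0.450), against 0.904 in other T lineage cells. *Cd160*, a receptor of innate-like T and NK cells, was at 0.518 (0.329 to 0.784). *Klrd1*, CD94, was at 1.37 (1.01 to 1.83), or 0.799 without 1 antibiotic cell. *Fcer1g* and *Tyrobp*, signalling adaptors of NK and myeloid cells, were at 0.0920 (0.0248 to 0.239) and 0.201 (0.0908 to 0.389), and at 0.245 and 0.253 in other T lineage cells. Without 1 antibiotic cell they were at 0.0247 and 0.0240. The stem-cell and memory antigen gene *Ly6a* was at 219 CPM and 715 CPM (0.306, 0.225 to 0.407), against 0.831 in other T lineage cells. *Rgs1* was at 0.0874, *Fgl2*, a fibrinogen-like immune regulator, at 0.119 and *Ly6d* at 0.0642, and *Rgs1* was at 0.0458 without 1 antibiotic cell. *Ly6d*, a gene also made by B cell precursors, was at 0.0345 without 1 antibiotic cell, but at 0.249 (0.0290 to 0.963) without the 4 vehicle cells richer in B cell list UMIs and at 0.195 (0.00478 to 1.18) without T lineage cells of 10 or more class II UMIs.

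The granzyme genes *Gzmb* and *Gzma* were lower with antibiotics, while the direction of *Ccl5* turned on 1 antibiotic cell. *Gzmb*, granzyme B, had 11 UMIs in 2 of 17 antibiotic and 171 UMIs in 34 of 94 vehicle cells (0.312, 0.153 to 0.573), and 0.0892 without 1 antibiotic cell. *Gzma*, granzyme A, was at 0.616 (0.446 to 0.833), or 0.337 without 1 cell. *Ccl5*, a chemokine stored by effector lymphocytes, had a median of 4 UMIs (0 to 544) in antibiotic and 9 UMIs (0 to 291) in vehicle cells. Its sum was higher with antibiotics (3119 CPM against 1799 CPM, 1.73), but 76.3% of the antibiotic UMIs came from 1 cell, and without it the ratio was 0.431.

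MHC class I genes were lower in 10 of 10 cases, at 8535 CPM and 12756 CPM in sum (0.669, 0.638 to 0.702). *B2m*, the light chain of class I, had a median of 49 UMIs (12 to 97) in antibiotic and 70 UMIs (1 to 186) in vehicle cells, at 3578 CPM and 5882 CPM (0.608, 0.565 to 0.654). *H2-K1* was at 0.557 (0.487 to 0.635) and *Tap1*, the peptide transporter, at 0.426 (0.247 to 0.690). Other T lineage cells, in which 5.46% of 11271 genes were higher and 9.86% lower by 1.5-fold with antibiotics, were lower in 10 of 10 class I genes as well, at 0.769. Interferon response genes stood at 1815 CPM and 2806 CPM (0.647, 0.582 to 0.717), with *Isg15* at 0.388 (0.163 to 0.795), against a list ratio of 0.495 in other T lineage cells. Immediate early and dissociation stress genes stood at 682 CPM and 1289 CPM (0.530, 0.446 to 0.625), with *Jun* at 0.142 (0.0380 to 0.371) and *Fos* at 0.457 (0.191 to 0.941), or 0.305 without 1 antibiotic cell. The list was at 0.579 in other T lineage cells. These lists were lower in both kinds of T lineage cell, and the part of dissociation in the other values was not tested.

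Among the single genes past these lists, *Rgs10*, a regulator of G protein signalling, was at 324 CPM and 103 CPM (3.15, 2.32 to 4.26), *Cirbp*, a cold-inducible RNA-binding protein, at 227 CPM and 80.3 CPM (2.83, 1.97 to 4.03), and *Itga4*, the integrin alpha 4 chain, at 214 CPM and 74.9 CPM (2.86, 1.97 to 4.13). *Cirbp* was seen in 15 of 17 antibiotic and 55 of 94 vehicle cells. In other T lineage cells *Cirbp* was at 2.74, *Rgs10* at 0.920 and *Itga4* at 0.826.

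Genes of MHC class II, which mark antigen-presenting cells, were higher in sum (3788 CPM against 1079 CPM, 3.51), but 81.1% of the antibiotic UMIs, 702 of 866, came from 1 cell. That cell of 15870 UMIs entered the T lineage by 3 UMIs of *Cd3g*, with none of *Cd3d* or *Cd3e*. It held 341 UMIs of *Cst3*, 300 of *Cd74* and 170 of *H2-Ab1*, and also 8 of *Xcr1*, 4 of *Flt3* and 2 of *Clec9a*, which mark conventional dendritic cells. It had 4 rule gene UMIs and was not marked as a doublet. With it, *Cst3* stood at 7.39 (6.27 to 8.72), *H2-Aa* at 5.0, *H2-Ab1* at 4.68, *H2-Eb1* at 3.63 and *Cd74* at 3.20. Without that cell alone they were at 0.622, 0.632, 0.690, 0.410 and 0.866. Removal of T lineage cells with 10 or more UMIs of *H2-Aa*, *H2-Ab1* and *H2-Eb1* took out 3 of 17 antibiotic and 6 of 94 vehicle cells, and since these genes chose the cells their own fall was built in. For genes that did not choose the cells, *Cst3* was then at 0.777 (0.490 to 1.18), *Il7r* at 2.87 (1.85 to 4.37), *Cd8b1* at 2.38 (1.66 to 3.37), *Xcl1* at 0.0460 (0.00944 to 0.135) and *Cxcr6* at 0.299 (0.183 to 0.464). *Klf2* came nearer to even, at 1.32 (1.05 to 1.63). *Lyz2*, a myeloid lysozyme, was at 0.171 before removal, with all of its antibiotic UMIs in 1 cell and 1 vehicle cell holding 78.9% of its vehicle UMIs.

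**Figure D5:**
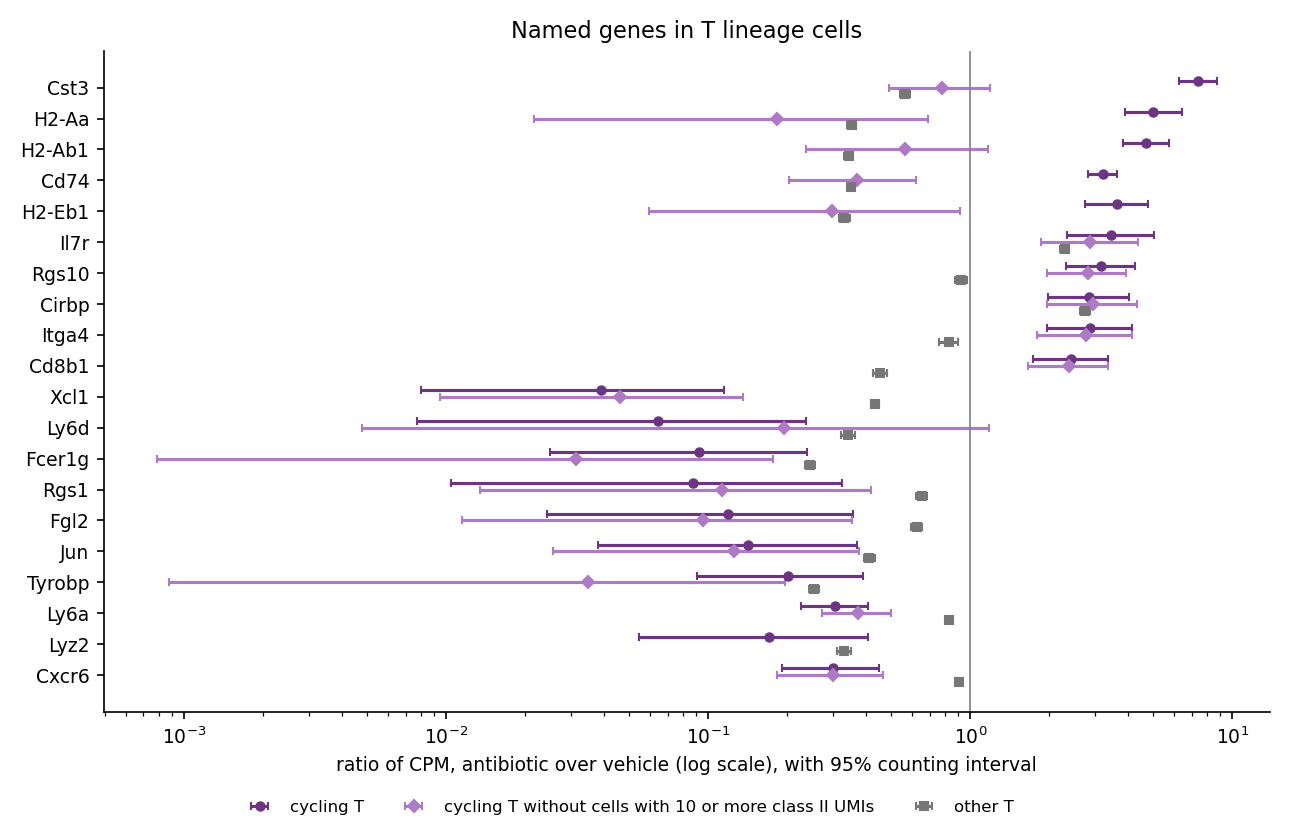
CPM ratio, antibiotic over vehicle on a log axis with 95% counting intervals, of 20 named genes in cycling T lineage cells (circles), in the same cells without those with 10 or more class II UMIs (diamonds, none for *Lyz2*), and in other T lineage cells (squares). *Cst3* moves to 0.777 from 7.39 without those cells, whereas *Il7r* stays above 1 and *Xcl1* and *Cxcr6* below 1 in all 3 sets.

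The 4 vehicle T lineage cells richer in B cell list UMIs entered the T lineage by 2 to 7 UMIs of *Cd3d*, *Cd3e* and *Cd3g*. Cells of 17768, 21265 and 8430 UMIs held 54, 53 and 76 UMIs of the B cell list against 5, 7 and 16 of the T cell list. They carried 110, 214 and 55 UMIs of *Ighm* and 23, 9 and 12 of *Ms4a1*, which encodes CD20. The cell of 10403 UMIs was nearer even, with 39 against 33 UMIs, 37 of *Vpreb3* and 36 of *Ighm*. None was marked as a doublet. Another vehicle T lineage cell, of 16642 UMIs, held 126 UMIs of *Cd74*, 51 of *Ifitm3* and 44 of *Cst3* and 5 UMIs each of the T and B cell lists. Without the 4 cells, *Il7r* and *Xcl1* had log2 ratios of 1.77 and -4.54 and *Cxcr6* of -1.79. *Cd74* and *H2-Ab1* then stood at ratios of 4.43 and 6.38, with the antibiotic cell rich in class II still included. That cell held 300 of 401 antibiotic UMIs of *Cd74* and 170 of 197 of *H2-Ab1*. Without it alone both genes were below 1, as given above.

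The 8 cycling B lineage cells were of several kinds and are described singly. The deepest antibiotic cell (23801 UMIs, 57 of the rule genes) held 745 UMIs of *Jchain*, 52 of *Mzb1*, 48 of *Xbp1*, 27 of *Txndc5* and 8 of *Tnfrsf17*, genes of antibody assembly and plasma cell survival. The other 2 antibiotic cells held 62 and 75 UMIs of *Ighm*, 50 and 34 of *Cd79a* and 17 and 22 of *Ms4a1*. Among the vehicle cells, the deepest (22240 UMIs) held 1674 UMIs of *Igha*, 845 of *Jchain* and 61 of *Mzb1*, with 4 rule gene UMIs. A second vehicle cell held 28 UMIs of *Vpreb3*, 10 of *Igll1* and 2 of *Vpreb1*, surrogate light chain genes of B cell precursors. Vehicle cells of 17118 and 6032 UMIs held 48 and 45 UMIs of *Ighm* and 23 and 8 of *Ms4a1*, and the first of them was the cell marked as a doublet.

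The remaining vehicle B lineage cell did not carry a B cell program. It held 2175 UMIs of *S100a8*, 1763 of *S100a9*, 942 of *Camp*, 816 of *Ngp* and 222 of *Chil3*, granule and alarmin genes of the neutrophil line, and met the rule with 1 UMI each of *Cd79a* and *Jchain*. This cell set the lowest ratios when all cycling cells were pooled, where *S100a8* had 0 UMIs with antibiotics and 2190 with vehicle, 99.3% of them in this cell. *Camp*, *Ngp*, *Lcn2* and *Chil3* likewise had 0 UMIs with antibiotics. For the B lineage, 507 genes reached 30 UMIs, of which 18.7% were higher and 18.9% lower by 1.5-fold in antibiotic cells. *H2-Aa* was at 901 CPM in antibiotic and 112 CPM in vehicle cycling B lineage cells, *Xbp1* at 883 CPM and 126 CPM and *S100a6* at 515 CPM and 27.9 CPM. All of the antibiotic *Xbp1* came from 1 cell.

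Within each library, the sum of the cycling B lineage cells, which were of mixed kinds, was lower in MHC class II than that of other B lineage cells. In the antibiotic library 25.2% of genes were higher and 45.8% lower by 1.5-fold, against 24.9% and 49.5% in the vehicle library. *H2-Aa* had 901 CPM in antibiotic cycling and 5590 CPM in other B lineage cells (0.161, 0.119 to 0.213), and 112 CPM and 5840 CPM in the vehicle library (0.0191, 0.00825 to 0.0377). *Cd74*, the invariant chain, was at 0.178 (0.157 to 0.201) and 0.0762 (0.0644 to 0.0895). *H2-DMb2*, a peptide-loading subunit, was at 0.0553 and 0.0360. *Fcer2a*, CD23 of follicular B cells, had 0 UMIs in the cycling cells of both libraries, against 978 UMIs in 1340 and 3468 UMIs in 2954 other B lineage cells. With 3 and 5 cells these are values of single cells. The vehicle sum includes the cell with neutrophil genes and the cell rich in *Igha* and *Jchain*, and the antibiotic sum the cell rich in *Jchain*. Of the vehicle cycling *H2-Aa* UMIs, 75% came from 1 cell. The part of cell kind in these ratios was not tested.

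The 8 other cycling cells were also diverse. The antibiotic cell held 265 UMIs of *H2-Ab1*, 83 of *Ifitm3*, 14 of *Cd209a* and 4 of *Itgax*, genes of conventional dendritic cells. Of the 7 vehicle cells, 2 held 48 and 16 UMIs of *Naaa*, 38 and 12 of *Xcr1* and 6 and 8 of *Clec9a*, which mark cross-presenting dendritic cells. A pair of vehicle cells held *Ncr1*, the NK receptor NKp46, at 7 and 9 UMIs with *Ccl5* at 109 and 101 UMIs. Another held 27 UMIs of *C1qa*, 18 of *Vsig4*, 13 of *Clec4f* and 13 of *Cd5l*, genes of Kupffer cells. The last 2 held 9 UMIs of *Cd34* with 4 of *Flt3*, and 7 of *Ly6d* with 4 of *Sox4*.

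In all cycling cells together, 9.02% of 5168 genes were higher and 18.0% lower by 1.5-fold with antibiotics. The higher end mixed single cells of several types, with *Jchain* at 747 UMIs in antibiotic and 856 in vehicle cells, 99.7% and 98.7% of them in 1 cell each, and *Ifitm3* at 399 CPM and 90.8 CPM (4.39), or a ratio of 1.44 without 1 antibiotic cell. Linker and core histone genes that are also transcribed outside S phase were higher, *Hist1h1c* at 150 CPM and 39.0 CPM (3.83, 2.50 to 5.86) and *Hist1h2bc* at 110 CPM and 21.5 CPM (5.10, 2.97 to 8.82), or 3.02 without 1 antibiotic cell. The G2 and M phase list was at 9309 CPM and 11434 CPM (0.814, 0.782 to 0.848), and the S phase list at 3845 CPM and 4734 CPM (0.812, 0.762 to 0.865).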

How the data were processed

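CD45+ leukocytes of the liver were captured with the Chromium Single Cell 3′ v2 kit, 1 library per group. The deposited values are UMI counts per gene and barcode for all barcodes of the kit, which per the submitters' processing notes the authors made with bcl2fastq and Cell Ranger on mm10 (none of the sources used here gives their versions), with neither a cell filter nor normalization. Because the counts are unfiltered, cells were called here, at 1500 UMIs and under 10% mitochondrial UMIs, which left 7050 antibiotic and 9002 vehicle cells. 1 antibiotic and 13 vehicle barcodes were removed by the mitochondrial limit. The members and gene lists were chosen with earlier results of these data known.

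UMIs were summed over the cells compared and given as CPM. Ratios carry the exact conditional interval of a pair of Poisson counts and shares the Clopper-Pearson interval, both at 95%. The interval method was tested on simulated Poisson counts only. These leave out the clumping of UMIs in single cells, so the test does not show that the intervals cover the spread between cells. A share of 0 was bounded at 3 counts. A gene entered a comparison at 30 UMIs in both groups together and counted as higher or lower by the fold at 1.5. Named genes are the 10 higher and 10 lower by the interval bound nearest 1, with at least 100 CPM in the higher group, leaving out ribosomal, mitochondrial, hemoglobin and receptor segment genes, plus members of the lists with the most UMIs. Receptor classes, single cells, the leave-out of 1 cell, the class II removal and the lineage by the larger list were chosen after seeing values. Doublets were scored by Scrublet in scanpy 1.11.5 at an expected 6% and kept. Gene identifiers matched GENCODE vM21 (GRCm38) for 98.8% of 28692. RefSeq promoters of GRCm38.p6 covered 27025 genes. The work was done in Python 3.11.15 with scipy 1.17.1, numpy 2.4.6, anndata 0.12.19, matplotlib 3.10.9 and pandas 2.3.3.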

Additional observations from a re-analysis of the deposited data

Results flagged for a closer look

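The cycling share had a log2 ratio, antibiotic over vehicle, of -2.51 in the T lineage and 0.40 in the B lineage, opposite in sign, and the difference was not tested. The B lineage sign was not stable: with T lineage cells richer in B cell list UMIs counted as B lineage the value was -0.42, and with the lineage set at 3 UMIs it was -0.055. Among T lineage cells the ratio of the cycling share was 1.46 in cells with CD8 transcripts and 0.131 in cells with *Cd4*, again without a test of the difference.

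Only the genes named for their ratios in cycling T lineage cells were compared with other T lineage cells, a choice that favours differences. Among them, 8 had an antibiotic over vehicle ratio above 1 in cycling and below 1 in other T lineage cells. These differences were not tested either. *Il7r* (3.44 and 2.29) and *Cirbp* (2.83 and 2.74) were above 1 in both. *Lef1*, *Tcf7* and *Cd8a*, outside that choice, were also above 1 in cycling and below 1 in other T lineage cells, and were not counted. *Cst3* was at 7.39 in cycling and 0.565 in other T lineage cells, *H2-Aa* at 5.0 and 0.352, *H2-Ab1* at 4.68 and 0.343, *Cd74* at 3.20 and 0.351, and *H2-Eb1* at 3.63 and 0.331, mostly from 1 antibiotic cell. *Rgs10* was at 3.15 and 0.920, *Itga4* at 2.86 and 0.826, and *Cd8b1* at 2.43 and 0.451.

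Barcodes with at most 100 UMIs, which were not called as cells, held 967 UMIs of the rule genes in the antibiotic and 1244 in the vehicle library. They were flagged for passing 3 UMIs. Sums over 383101 and 441856 barcodes would pass that limit in almost any case, so the flag carries no result.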

How the results depend on the processing

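Of 347 alternative values, 120 for the main results and 197 for named genes moved by less than the counting interval of the value reported, or, for percents of genes, by less than 1.5 times, and 16 for named genes moved further without a change of sign. Over the settings tried, the log2 ratio of the cycling share, antibiotic over vehicle, ranged between -2.65 and -1.51 in all cells and between -3.47 and -1.98 in the T lineage, and between -0.45 and 0.94 in the B lineage and -1.92 and 0.54 in other cells, where the sign was not stable. Thinned to 1500 UMIs, the T lineage value was -3.47, against -2.51. In all cycling cells the G2 and M phase list, at -0.30, was at -0.58 with 2 rule gene UMIs, -0.12 thinned, -0.37 with the genes outside the rule and -0.24 with cells weighted alike, and the S phase list, also at -0.30, was at -0.53 thinned. With no UMI minimum and 0.5 added to each count, the percent of genes past 1.5-fold was 42.3 against 27.1 in all cycling cells, 50.7 against 27.8 in the T lineage and 67.4 against 37.7 in the B lineage. Removal of T lineage cells with 10 or more class II UMIs, chosen after seeing the data, turned the log2 ratio of *Cst3* to -0.34, *H2-Aa* to -2.14, *H2-Ab1* to -0.74, *Cd74* to -1.39 and *H2-Eb1* to -1.54. For the last 4 a fall was built in, since class II genes chose the cells, and the removal took out 3 antibiotic and 6 vehicle cells. The cause of the other shifts was not tested. No paired analysis was possible because each group had 1 library. The antibiotic values rest on 21 cells, whose number limits their precision.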
